A study of Homo sapiens with 12 samples.

Results

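SEC16A, SEC31A, ARFGAP2, EXOC1, EXOC7, STX2, SYTL2, MYOF, ESYT2 and SPAG9 are 10 genes of vesicle trafficking, each with an exon whose splicing had been linked to the basal-like or classical subtype of pancreatic ductal adenocarcinoma (PDAC) or to the RNA-binding proteins QKI and RBFOX2. They were found by their symbols among the 48114 genes of the deposited tables, and each matched 1 row. The SEC31A row also carries the symbol THAP9-AS1, so its values hold both genes. Exon inclusion chose these genes, in part in the same libraries. The study found exons of SEC16A, SEC31A and SYTL2 by comparing tumors of The Cancer Genome Atlas. Their gene totals in the same contrasts are therefore given as a description, without p-values. The totals sum all isoforms of a gene, and no value below measures the inclusion of an exon.

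RNA came from 2 PDAC cell lines, PANC-1 (an epithelioid carcinoma line that the study uses as basal-like) and HPAF-II (an adenocarcinoma line that it uses as classical). PANC-1 cells were transfected for 48 h in 3 arms, siCtrl (control siRNA), siQKI (QKI silenced) and siRBFOX2 (RBFOX2 silenced), with the QKI and RBFOX2 siRNAs at 40 nM. The control and QKI siRNAs were commercial pools of several siRNAs. HPAF-II cells received siCtrl only, also for 48 h by their labels. Each of the 4 groups has 3 biological replicates, and each subtype is represented by 1 line, so line and subtype cannot be told apart. The unit is the gene count after the authors' scaling of each library, called normalized count here.

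Secretory proteins leave the endoplasmic reticulum (ER) in vesicles coated by COPII, and COPI vesicles return material from the Golgi. Vesicles bound for the cell surface are tethered by the exocyst or by RAB27 effectors and fuse through SNARE proteins, while C2-domain proteins such as ferlins and extended synaptotagmins act at membranes in response to lipids and calcium. A cassette exon is an internal exon that is either kept or skipped, and a cassette with a length divisible by 3 can be skipped without shifting the reading frame. QKI, a STAR-family protein, binds RNA at sites with the core CTAAC, and RBFOX2 binds at GCATG (both written here as DNA).

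The 11 cassette exons of the 10 genes (SEC31A has 2) were located in GENCODE 29 transcripts on GRCh38, the hg38 build that the tables use. Those of the 7 genes whose totals were past the threshold after QKI knockdown follow, read 5′ to 3′ on the strand of the gene. In SEC16A and SYTL2, capitals mark the target of the siRNA that the study designed against the exon, and in EXOC7 they mark the motifs GCATG and CTAAC.
SEC16A, chr9:136445052-136445111: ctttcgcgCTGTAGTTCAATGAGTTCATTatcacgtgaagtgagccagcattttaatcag
ARFGAP2, chr11:47172710-47172751: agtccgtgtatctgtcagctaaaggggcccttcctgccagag
EXOC7, chr17:76091143-76091235: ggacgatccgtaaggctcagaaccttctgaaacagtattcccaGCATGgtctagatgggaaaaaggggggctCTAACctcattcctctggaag
STX2, coding part, chr12:130796043-130796120: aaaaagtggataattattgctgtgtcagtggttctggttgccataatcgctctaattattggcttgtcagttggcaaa
SYTL2, chr11:85717483-85717530: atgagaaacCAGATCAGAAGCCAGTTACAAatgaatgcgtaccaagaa
ESYT2, chr7:158752781-158752843: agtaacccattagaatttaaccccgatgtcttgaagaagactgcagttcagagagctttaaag
SPAG9, chr17:50975863-50975901: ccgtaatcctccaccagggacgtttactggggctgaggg

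All 7 of these genes lie on the minus strand. The other cassettes are the EXOC1 exon of 45 bases (chr4:55888888-55888932, plus strand), the MYOF exon of 39 bases (chr10:93392917-93392955, minus strand) and the SEC31A exons of 39 and 78 bases (chr4:82830937-82830975 and chr4:82861631-82861708, minus strand). The lengths of all 11 were multiples of 3, against 71.2% of 11824 annotated cassettes that are coding throughout. Their median length was 48 bases against 102. CTAAC and GCATG were searched in the exon alone, on the strand of the gene, and for STX2 in the coding part only. They were found only in EXOC7 among the 11, in 9.09% of them each. Of the annotated cassettes, searched over their full length, 3.98% and 9.79% hold them. The flanking introns were not searched. Of the 126 bases of the STX2 exon, 78 are coding, and the coding sequence ends within it. This exon would therefore not count among the annotated cassettes, and the point on the reading frame does not apply to it.

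In the tables, with FAST DB identifiers and hg38 positions, SEC16A is GSHG0045300 on chromosome 9 (136440097 to 136483783), SEC31A is GSHG0033587 on chromosome 4 (82818509 to 82900916) and ARFGAP2 is GSHG0007700 on chromosome 11 (47164297 to 47176879). The exocyst genes EXOC1 and EXOC7 are GSHG0032624 on chromosome 4 (55853648 to 55905086) and GSHG0019648 on chromosome 17 (76081016 to 76103789). STX2 is GSHG0010745 on chromosome 12 (130789600 to 130839266) and SYTL2 is GSHG0008104 on chromosome 11 (85694221 to 85811141). MYOF is GSHG0005311 on chromosome 10 (93306429 to 93482334), ESYT2 is GSHG0041338 on chromosome 7 (158730997 to 158830038) and SPAG9 is GSHG0019436 on chromosome 17 (50962174 to 51120868).

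The targeted genes were checked first. QKI was at 19.7% of its siCtrl mean in siQKI cells and RBFOX2 at 13.6% in siRBFOX2 cells. PANC-1 cells held VIM and CDH2, and CDH2 was listed at 0 in all HPAF-II libraries, which held EPCAM, CDH1 and KRT7 at levels above every PANC-1 siCtrl library. Of 6 leukocyte, endothelial and fibroblast markers, PTPRC was listed at 0 in siCtrl and siQKI cells, and the list summed to 54316 to 61063 normalized counts in siCtrl, 46054 to 48224 in siQKI and 48182 to 49711 in siRBFOX2 libraries, nearly all of it from CD68 and COL1A1. CD68 fell in both (log2 fold changes -0.49 and -0.33, adjusted p = 1.14e-06 and 1.01e-04 from limma) and COL1A1 rose (0.99 and 0.42, adjusted p = 5.29e-06 and 0.0097). Of CD68 exon bases 85.8% overlap other genes. The COL1A1 call in siRBFOX2 cells was lost without a mean-variance trend in the fit. ACTA2 also rose in siQKI cells (0.93). Its call was lost without that trend, without siCtrl replicate 1 or 2 and without any 1 of the siQKI libraries (0.66 to 0.95), among other alternatives. Of 6 epithelial markers 1 rose and 1 fell in siQKI cells and 1 rose and 3 fell in siRBFOX2 cells, with CDH1 the one that rose (1.39 and 0.53, adjusted p = 1.54e-07 and 0.00177). KRT18 was the one that fell in siQKI cells (-0.20), a call lost without a mean-variance trend. The 6 summed to 864037 to 920091 normalized counts in siCtrl, 839225 to 904679 in siQKI and 713084 to 770588 in siRBFOX2 libraries. Of 4 mesenchymal markers 2 fell and 1 rose in siQKI cells and 1 rose in siRBFOX2 cells. VIM fell after QKI knockdown (-0.13, adjusted p = 0.0152), a call lost after upper-quartile rescaling (-0.07) and without siCtrl replicate 3 or siQKI replicate 2 or 3 (-0.13 to -0.12). ZEB1 fell too (-0.28, adjusted p = 0.00249), while CDH2 rose in both (0.26 and 0.22, adjusted p = 5.13e-04 and 0.00319). The 4 summed to 1871950 to 1908010 normalized counts in siCtrl, 1686790 to 1763960 in siQKI and 1783580 to 1848150 in siRBFOX2 libraries. Nearly all of it was VIM. On this scaling neither knockdown overlapped siCtrl. With libraries brought to a common total, the sums were 5376 to 5567 in siCtrl and 5138 to 5293 in siQKI libraries. In siRBFOX2 libraries they were 5492 to 5542, within the siCtrl range, so the lower siRBFOX2 sum depended on the scaling. The part of these shifts in the results below was not tested. In bulk RNA, a change in the share of cells and a change in RNA per cell cannot be told apart.

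After QKI knockdown 7 of the 10 trafficking genes had lower totals past the threshold of the fit over all genes (an adjusted p of 0.05), and none had a higher total past it. These were STX2, ARFGAP2, SPAG9, SYTL2, SEC16A, EXOC7 and ESYT2, which kept 66.3% to 92.2% of their siCtrl mean. Across all 22544 genes tested, 33.0% passed in either direction and 18.1% passed as lower. After RBFOX2 knockdown 6 of the 10 were past the threshold, again all lower, at 72.6% to 91.7% of the siCtrl mean, against 26.5% of all genes in either direction and 14.5% lower. These 6 were ARFGAP2, STX2, SPAG9, ESYT2, SEC16A and SYTL2. After upper-quartile rescaling SEC31A passed too, as higher, and SYTL2 did not. The members were chosen in part from these contrasts, so nothing is read from the counts beyond the values themselves. The siCtrl libraries serve both comparisons. The median log2 fold change of the 10 genes was -0.21 after QKI and -0.14 after RBFOX2 knockdown, against 0.03 and 0.01 over all genes tested. The 10 genes had smaller errors (median SE 0.04 against 0.14), so the shares past the threshold do not measure the size of change. Their median absolute log2 fold changes were 0.21 and 0.14, smaller than the 0.29 and 0.25 over all genes tested.

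**Figure D1:**
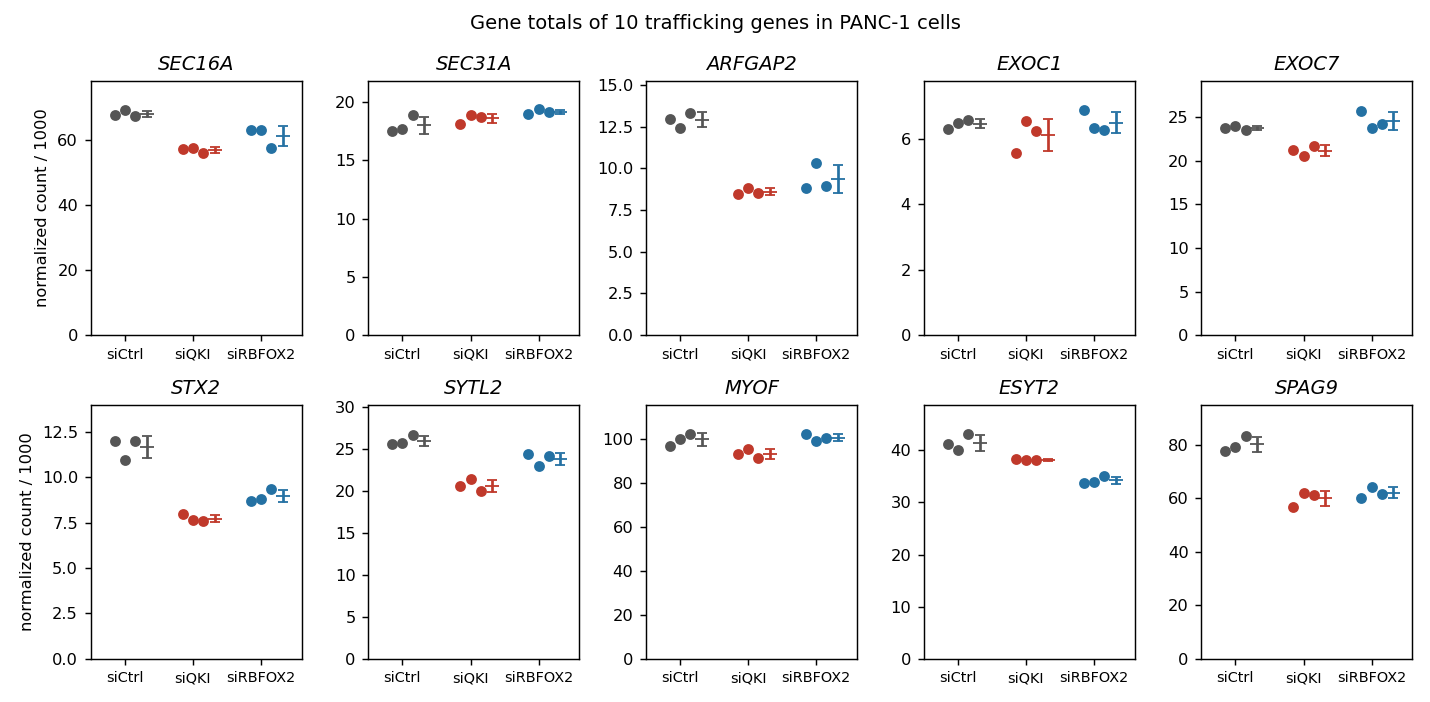
Normalized counts (divided by 1000, y axes starting at 0) of the 10 genes in the 3 siCtrl, 3 siQKI and 3 siRBFOX2 libraries of PANC-1 cells, with points for libraries and a bar for the mean ± SD. The STX2, ARFGAP2 and SPAG9 points of both knockdowns lie below every siCtrl point, while the EXOC1 points of the 3 groups overlap.

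Of the ER exit genes, SEC16A encodes the scaffold on which COPII coats assemble. Its siCtrl libraries held 67532, 69079 and 67319 normalized counts, the siQKI libraries 57298, 57643 and 55862, and the siRBFOX2 libraries 62976, 63130 and 57562. No siCtrl library overlapped either knockdown, and siRBFOX2 replicate 3 stood lower than the other two of its group, within the siQKI range. The log2 fold change was -0.26 (SE 0.04) for siQKI and -0.15 (SE 0.04) for siRBFOX2. The siRBFOX2 call was lost without a mean-variance trend in the fit.

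SEC31A, the outer COPII coat protein that pairs with SEC13, held 17521, 17654 and 18856 normalized counts in siCtrl, 18147, 18875 and 18738 in siQKI and 18968, 19352 and 19094 in siRBFOX2 libraries. The siQKI values overlapped siCtrl, and the siRBFOX2 values lay just above it. Its log2 fold changes of 0.05 (SE 0.04) and 0.09 (SE 0.04) did not pass the threshold. Rescaling by the upper quartile raised the second to 0.12, past it. In GENCODE 29, 6.19% of SEC31A exon bases are shared with THAP9-AS1 or with THAP9 on the opposite strand.

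ARFGAP2 activates GTP hydrolysis by ARF1 on COPI coats. Its totals were 12929, 12439 and 13340 normalized counts in siCtrl, 8444, 8825 and 8497 in siQKI, and 8843, 10324 and 8934 in siRBFOX2 libraries. Every knockdown library lay below every siCtrl library, with siRBFOX2 replicate 2 the highest of the 6. About 66.6% of the siCtrl mean remained after QKI knockdown and 72.6% after RBFOX2 knockdown (log2 fold changes -0.59 and -0.47, SE 0.06).

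The exocyst subunits EXOC1 (Sec3) and EXOC7 (Exo70) both bind the plasma membrane. EXOC1 held 6305, 6480 and 6574 normalized counts in siCtrl, 5565, 6535 and 6232 in siQKI and 6865, 6335 and 6267 in siRBFOX2 libraries. All 3 groups overlapped, and the fold changes of -0.08 and 0.01 (SE 0.06, log2) did not pass. EXOC7 held 23779, 24018 and 23512 in siCtrl, 21286, 20547 and 21705 in siQKI and 25767, 23752 and 24252 in siRBFOX2 libraries. Its siQKI values were below all siCtrl values, whereas its siRBFOX2 values overlapped them. The log2 fold changes were -0.17 (SE 0.04), past the threshold, and 0.05 (SE 0.04), not past it. Upper-quartile rescaling took the siQKI value to -0.10, no longer past the threshold. Of the EXOC7 exon bases 28.7% overlap ZACN or AC018665.1 on the opposite strand, and whether the counting used strand is not stated.

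STX2 encodes a plasma membrane syntaxin, the SNARE on the target side of fusion. Its libraries held 12019, 10958 and 11998 normalized counts in siCtrl, 7966, 7625 and 7592 in siQKI and 8716, 8821 and 9351 in siRBFOX2 cells. The 3 groups were fully apart, with siQKI lowest. STX2 had the largest fold change of the 10 after QKI knockdown, -0.59 on the log2 scale (SE 0.05), and was at -0.38 (SE 0.05) after RBFOX2 knockdown.

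SYTL2, a RAB27 effector that docks vesicles at the cell surface, held 25599, 25640 and 26646 normalized counts in siCtrl, 20526, 21330 and 19923 in siQKI and 24358, 22971 and 24070 in siRBFOX2 libraries. Again the 3 groups were apart and siQKI lowest. The log2 fold change was -0.33 (SE 0.04) after QKI knockdown and -0.13 (SE 0.04) after RBFOX2 knockdown. The second was past the threshold but lost in 10 of 17 alternatives, among them the fits without any 1 of the siCtrl libraries and without siRBFOX2 replicate 2 or 3, where the value lay between -0.14 and -0.10.

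Of the C2-domain proteins, MYOF (myoferlin, a ferlin of membrane repair) held 96861, 100102 and 102553 normalized counts in siCtrl, 93128, 95718 and 91264 in siQKI and 102324, 98994 and 100735 in siRBFOX2 libraries. Its siQKI values were below all siCtrl values by a small margin, but the change of -0.10 (SE 0.04, log2) did not pass the threshold. It passed without siCtrl replicate 1 (-0.12) or siRBFOX2 replicate 2, and when the minimum mean for testing was raised to 50. Upper-quartile rescaling took it to -0.03, not past the threshold. ESYT2, a tether between ER and plasma membrane, held 41185, 40057 and 43042 in siCtrl, 38375, 38093 and 38079 in siQKI and 33816, 33867 and 35013 in siRBFOX2 libraries. The 3 groups were apart, here with siRBFOX2 lowest. Its log2 fold changes were -0.12 (SE 0.04) and -0.27 (SE 0.04). The siQKI call was lost without siCtrl replicate 1 or 3 or without any 1 of the siQKI libraries (-0.12 to -0.09), upper-quartile rescaling took the value to -0.05, and it was not past the threshold without a mean-variance trend.

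SPAG9 (JIP4) is a scaffold for JNK and p38 kinases that also binds ARF6 and the motor proteins kinesin-1 and dynein. Its totals were 77808, 79135 and 83432 normalized counts in siCtrl, 56602, 61960 and 61267 in siQKI and 60205, 64231 and 61602 in siRBFOX2 libraries. Both knockdowns were below siCtrl and overlapped each other, at 74.8% and 77.4% of the siCtrl mean (log2 fold changes -0.42 and -0.37, SE 0.04).

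**Figure D2:**
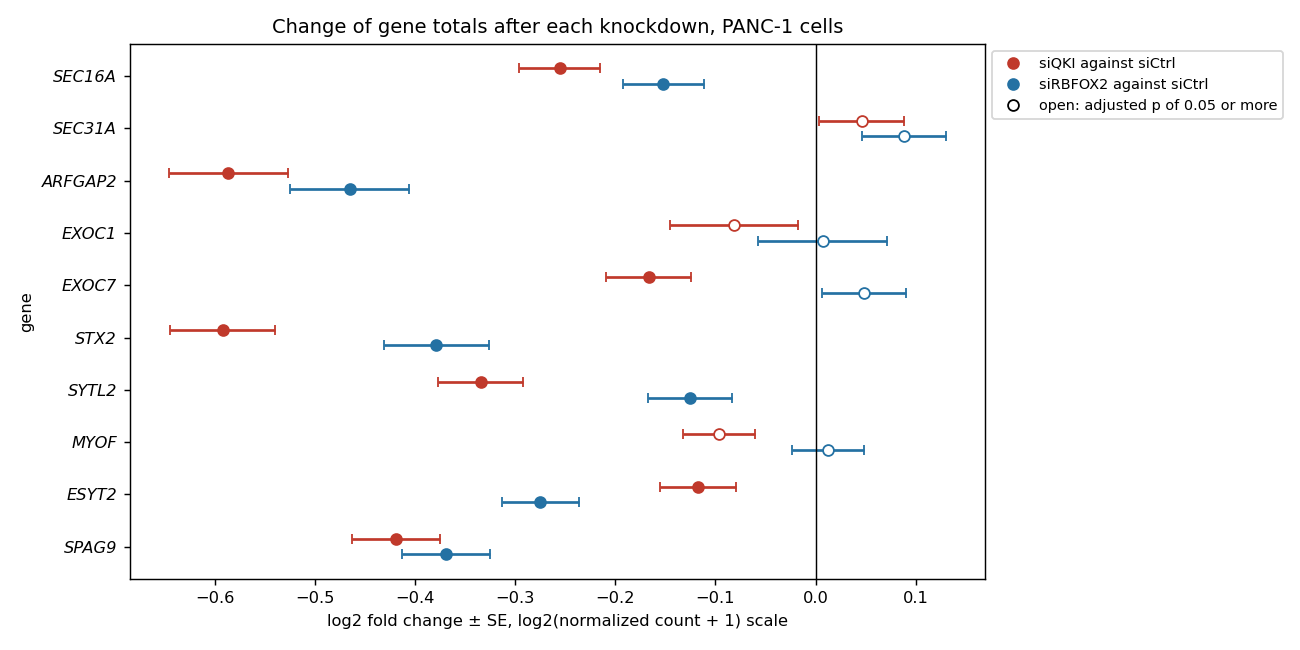
Log2 fold change ± SE (x axis) of each of the 10 genes (y axis) for siQKI (red) and siRBFOX2 (blue) against siCtrl, with open points where the adjusted p was 0.05 or more. The largest values are those of STX2 and ARFGAP2, both at -0.59 after QKI knockdown, and no filled point lies above 0.

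The knockdowns were also set against each other. This contrast, siQKI against siRBFOX2, is the difference of the 2 contrasts that in part chose the genes. It comes from the same fit of 9 libraries, so it too is a description without p-values. Past the threshold were 5 of the 10 genes, against 21.5% of all genes tested, and nothing is read from that count. EXOC7 (log2 fold change -0.21, SE 0.04), SYTL2 (-0.21, SE 0.04) and STX2 (-0.21, SE 0.05) were lower in siQKI than in siRBFOX2 cells, with no overlap between their libraries. MYOF was lower by less (-0.11, SE 0.04), and its call was lost in 11 of 17 alternatives, including without any 1 of the siQKI libraries, without siCtrl replicate 2 and without siRBFOX2 replicate 1 or 3 (-0.13 to -0.09). ESYT2 was the only one of the 10 past the threshold as higher in siQKI cells (0.16, SE 0.04), a call lost without a mean-variance trend.

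The other members were not past the threshold in this contrast. SEC16A had a log2 fold change of -0.10 (SE 0.04), which passed without siRBFOX2 replicate 3 (-0.15). For ARFGAP2 it was -0.12, and for SPAG9, EXOC1 and SEC31A it was -0.05, -0.09 and -0.04.

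Compared per kilobase of merged GENCODE 29 exons, MYOF was the most abundant of the 10 genes in PANC-1 siCtrl cells, at 11783 ± 337 normalized counts per kilobase (SD, n = 3). SEC16A (6815 ± 96.3) and SPAG9 (6698 ± 246) followed with overlapping libraries, then ESYT2 (5837 ± 212) and STX2 (3131 ± 163). EXOC7 (2357 ± 25.1) and SYTL2 (2306 ± 52.7) overlapped in turn, and ARFGAP2 (2180 ± 76.2), SEC31A (1969 ± 80.4) and EXOC1 (1207 ± 25.5) were lowest, each apart from the next. The counts are of FAST DB genes, whose exon lengths may differ from those of GENCODE 29, and the SEC31A row also holds THAP9-AS1. The SD and the overlap of libraries do not cover this, so the order of close values is uncertain. By their normalized counts over the 9 PANC-1 libraries, all 10 lay at or above the 71.0 percentile of the genes tested.

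HPAF-II and PANC-1 siCtrl cells had been normalized in separate tables, so all libraries were brought to a common total of 1000000 (values are then called rescaled counts) and no test was run between the lines. The 10 genes split between the lines. ARFGAP2 was higher in HPAF-II, STX2 and SYTL2 were lower by more than 3-fold, and EXOC7 and MYOF overlapped between the lines. A difference of at least 2-fold was found for 3 of the 10 genes, against 52.4% of the 24673 genes compared, and libraries of the lines did not overlap for 7 of the 10, against 63.7%.

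ARFGAP2 stood at 38.2, 35.7 and 38.6 rescaled counts in PANC-1 and at 111, 118 and 110 in HPAF-II libraries, a 3.02-fold higher mean. Per kilobase it was the eighth of the 10 genes in PANC-1 cells and the second in HPAF-II cells, after MYOF. STX2 stood at 35.5, 31.5 and 34.7 rescaled counts in PANC-1 and at 9.54, 11.4 and 7.67 in HPAF-II libraries, 3.55-fold higher in PANC-1. SYTL2 had the widest gap, with 75.6, 73.6 and 77.2 rescaled counts in PANC-1 and 22.8, 21.1 and 16.3 in HPAF-II libraries, 3.76-fold higher in PANC-1. All of these values lay far outside the spread of the other line.

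SPAG9 (233 ± 7.70 rescaled counts in PANC-1 against 121 ± 24.3 in HPAF-II cells, SD, n = 3), ESYT2 (120 ± 4.91 against 83.0 ± 7.60) and SEC16A (198 ± 2.29 against 174 ± 5.28) were also lower in every HPAF-II library than in any PANC-1 siCtrl library, by 1.93-, 1.45- and 1.13-fold. EXOC1 was higher in HPAF-II cells by 1.35-fold (25.4 ± 3.02 against 18.8 ± 0.248). EXOC7 (69.1 ± 1.05 in PANC-1 and 69.4 ± 6.92 in HPAF-II) and MYOF (290 ± 6.02 and 270 ± 30.8) overlapped. SEC31A overlapped too, at 51.7, 50.7 and 54.6 rescaled counts in PANC-1 and 84.9, 88.7 and 47.0 in HPAF-II libraries, where replicate 3 alone lay below PANC-1.

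HPAF-II replicate 3 was the lowest of the 3 HPAF-II libraries for all 10 genes, against 33.8% of all genes compared and 49 of 90 genes of the trafficking lists described below. It held between 54.2% (SEC31A) and 95.5% (ARFGAP2) of the mean of the other two. It also had the largest size factor (1.09 against 0.810 and 0.873). Without it SEC31A was 1.66-fold higher in HPAF-II cells and no longer overlapped, and SPAG9 was at 0.579 of its PANC-1 level. None of the 10 log2 ratios changed sign without it, and those of EXOC7 and MYOF were then 0.07 and -0.01.

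**Figure D3:**
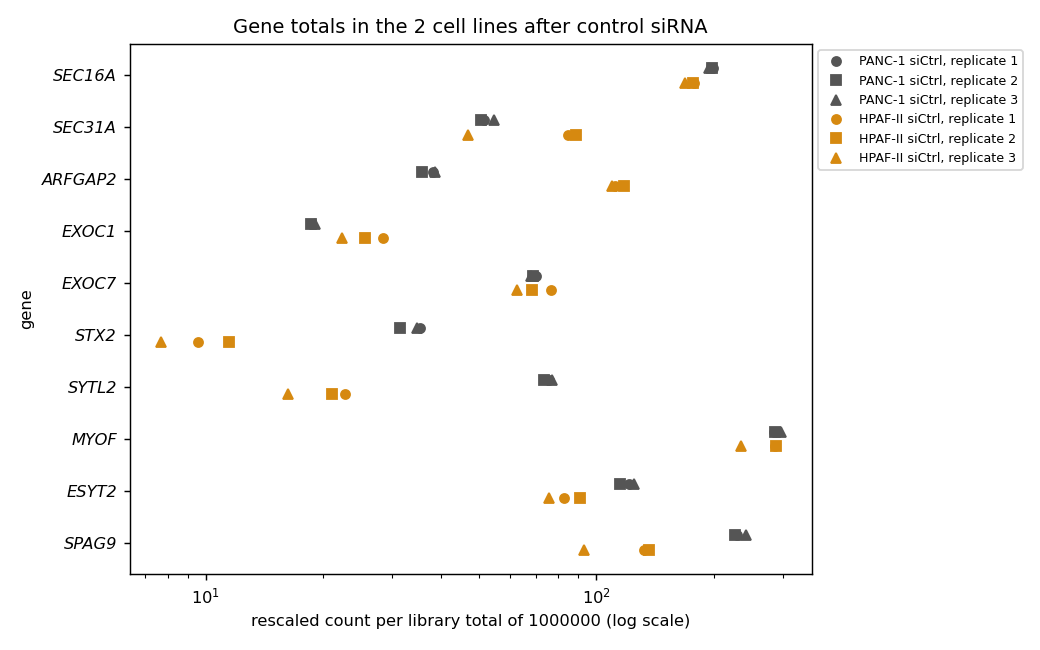
Rescaled counts (library total 1000000, x axis, log scale) of the 10 genes (y axis) in the 3 PANC-1 siCtrl (grey) and 3 HPAF-II siCtrl libraries (orange), with a marker shape for each replicate. ARFGAP2 lies to the right in HPAF-II, SYTL2 and STX2 lie to the left, and the triangle of HPAF-II replicate 3 is leftmost of its line in every row.

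The machinery around these genes was described with 7 lists of 91 other trafficking genes, 89 of which were tested in PANC-1 cells. After QKI knockdown 37 of the 89 fell and 9 rose. After RBFOX2 knockdown 27 fell and 5 rose. These are 51.7% and 36.0% of the genes tested, against 33.0% and 26.5% over all genes, and the median log2 fold changes were -0.13 and -0.06. The listed genes had smaller errors and smaller changes than all genes tested, so these shares do not measure the size of change. Their median SE was 0.05 against 0.14. Their median absolute log2 fold changes were 0.18 after QKI and 0.12 after RBFOX2 knockdown, against 0.29 and 0.25. Upper-quartile rescaling left 26 lower and 10 higher after QKI knockdown (40.4% of the 89, against 32.3% of all genes) and 23 lower and 7 higher after RBFOX2 knockdown (33.7%, against 25.9%). Of the calls named below, those of MIA3, SEC24A, RALA, RALB, VAMP2, SYTL1, SYTL5, ESYT3 and OTOF in siQKI cells and of RALB, OTOF and MAPK8IP3 in siRBFOX2 cells were lost without a mean-variance trend.

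In the list of COPII coat and ER exit genes, 7 of 16 fell and 2 rose after QKI knockdown, and 5 fell after RBFOX2 knockdown, where MIA3 also passed as higher after upper-quartile rescaling (log2 fold change 0.19, seen after the values were known). SEC23B, the inner-coat partner of SEC24, fell from 30203, 29638 and 32535 normalized counts in siCtrl to 20134, 20464 and 20614 in siQKI libraries (log2 fold change -0.59, SE 0.04, adjusted p = 7.41e-08 from limma) and to 21954, 21162 and 21837 in siRBFOX2 libraries (-0.51, adjusted p = 7.44e-07). SAR1A, the GTPase that starts coat assembly, fell by 0.35 and 0.32 on the log2 scale (adjusted p = 1.51e-06 and 7.38e-06). MIA3 (TANGO1, which helps load collagen) rose by 0.22 after QKI knockdown (adjusted p = 0.0099), and SEC24A, a cargo adaptor, by 0.16 (adjusted p = 0.0495), the latter a call lost in 10 of 17 alternatives. The MIA3 call was lost without siCtrl replicate 2 (0.18) or siQKI replicate 2 (0.19). The SEC24A call was lost without siCtrl replicate 1 or 2, siQKI replicate 2 or 3 or siRBFOX2 replicate 1 or 3 (0.11 to 0.16).

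In the list of COPI coat and Arf genes, 4 of 16 fell after QKI and 5 after RBFOX2 knockdown. None rose, but the coat subunit COPG2 passed as higher in siQKI cells after upper-quartile rescaling (log2 fold change 0.21) or without siQKI replicate 1 (0.19), and COPB1 did so in siRBFOX2 cells after that rescaling (0.13) or without siRBFOX2 replicate 2 (0.14). COPG2 and COPB1 were picked out after their values were seen. ARF3, an Arf GTPase of the Golgi, fell by 0.32 (adjusted p = 1.20e-04) and 0.64 (adjusted p = 3.13e-07), and the coat subunit COPZ1 fell by 0.30 and 0.24 (adjusted p = 1.37e-04 and 0.00142). The paralogs of ARFGAP2 did not pass in either knockdown. ARFGAP1 was at 0.10 and -0.11 and ARFGAP3 at -0.08 and -0.01 on the log2 scale.

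Of 10 other exocyst subunits and GTPases that bind the complex, 4 fell after QKI and 3 after RBFOX2 knockdown. RALA and RALB, the Ral GTPases, fell by 0.18 each after QKI knockdown (adjusted p = 0.00812 and 0.0159 from limma), and RALB and the subunit EXOC2 fell by 0.21 and 0.20 after RBFOX2 knockdown (adjusted p = 0.00937 and 0.00527). After upper-quartile rescaling both siQKI calls were lost (RALA and RALB at -0.12). The RALB call in siQKI cells was also lost without siCtrl replicate 1 or 3 (-0.15 each), and that in siRBFOX2 cells without siRBFOX2 replicate 1 (-0.16).

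Of the 25 SNARE genes 13 fell and 2 rose after QKI knockdown, and 9 fell and 2 rose after RBFOX2 knockdown. NAPA (alpha-SNAP, which helps NSF take SNARE complexes apart) held 29790, 32855 and 29578 normalized counts in siCtrl and 18826, 19014 and 16681 in siQKI libraries, a fall of 0.76 on the log2 scale (adjusted p = 2.20e-07). The syntaxin STX3 fell by 0.63 (adjusted p = 2.49e-06). STX16, a syntaxin of the trans-Golgi network, rose by 0.18 and 0.27 (adjusted p = 0.00317 and 2.05e-04). VAMP2, a vesicle SNARE of regulated secretion, had log2 fold changes of 0.17 in siQKI (adjusted p = 0.036) and -0.61 in siRBFOX2 cells (adjusted p = 2.16e-06), and between the knockdowns it was higher in siQKI cells by 0.78 (SE 0.06, adjusted p = 2.44e-07). Its siQKI call was lost without any 1 of the siCtrl libraries or without siQKI replicate 1 (0.12 to 0.17). In siRBFOX2 cells STX12 fell by 0.57 (adjusted p = 3.42e-06) and STX7 rose by 0.28 (adjusted p = 9.27e-04). Of NAPA and STX16 exon bases, 29.8% and 28.4% overlap another gene.

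Among RAB27 and its effectors 5 of 10 fell and 2 rose after QKI knockdown, and 2 fell and 1 rose after RBFOX2 knockdown. RAB27B rose from 1882, 2209 and 1916 normalized counts to 2729, 3139 and 3161 in siQKI libraries and to 3734, 3830 and 3629 in siRBFOX2 libraries (log2 fold changes 0.59 and 0.90, adjusted p = 5.61e-05 and 1.74e-06). Among the paralogs of SYTL2, SYTL1 rose by 0.49 after QKI knockdown (adjusted p = 0.0335), and SYTL5 fell by 1.56 (adjusted p = 0.0253) at low values that overlapped, 339, 271 and 92 against 87, 99 and 37. The SYTL1 call was lost without siCtrl replicate 1 or 3 or any 1 of the siQKI libraries (0.44 to 0.51), and the SYTL5 call without siCtrl replicate 1 or 2 or siQKI replicate 3 (-1.36 to -1.12). EXPH5 fell by 0.76 (adjusted p = 0.00199). In siRBFOX2 cells MLPH fell by 0.51 (adjusted p = 1.24e-06) and UNC13D, the Munc13-4 priming factor, by 0.38 (adjusted p = 7.38e-05).

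Of the 4 tested genes among ferlins and extended synaptotagmins, 2 rose after QKI and 1 after RBFOX2 knockdown. ESYT3, a paralog of ESYT2, rose from 528, 549 and 496 to 1064, 915 and 994 normalized counts in siQKI cells (log2 fold change 0.92, adjusted p = 0.00541), and OTOF rose in both (0.80 and 0.76, adjusted p = 0.0244 and 0.0384). The OTOF calls were lost without siCtrl replicate 1 (0.51 and 0.47), as well as without siQKI replicate 2 (0.66) or 3 (0.79) in siQKI cells and without siCtrl replicate 3 (0.80) or siRBFOX2 replicate 1 (0.78) or 2 (0.62) in siRBFOX2 cells. ESYT1, the abundant paralog, was at -0.02 and 0.04 and did not pass.

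Of 8 scaffold and kinesin-1 genes, 4 fell and 1 rose after QKI knockdown, and 3 fell and 1 rose after RBFOX2 knockdown. KLC2, a kinesin light chain, fell by 0.66 (adjusted p = 2.47e-08) and ARF6 by 0.45 (adjusted p = 1.87e-07) in siQKI cells, where KLC1 rose by 0.16 (adjusted p = 0.00372) with 40.6% of its exon bases overlapping other genes. In siRBFOX2 cells ARF6 and KIF5B, the kinesin-1 heavy chain, fell by 0.34 and 0.31 (adjusted p = 5.60e-06 and 4.01e-05), and MAPK8IP3 (JIP3), the paralog of SPAG9, rose by 0.17 (adjusted p = 0.0341). The MAPK8IP3 call was lost without siCtrl replicate 2 or 3 or siRBFOX2 replicate 2 or 3 (0.11 to 0.18).

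**Figure D4:**
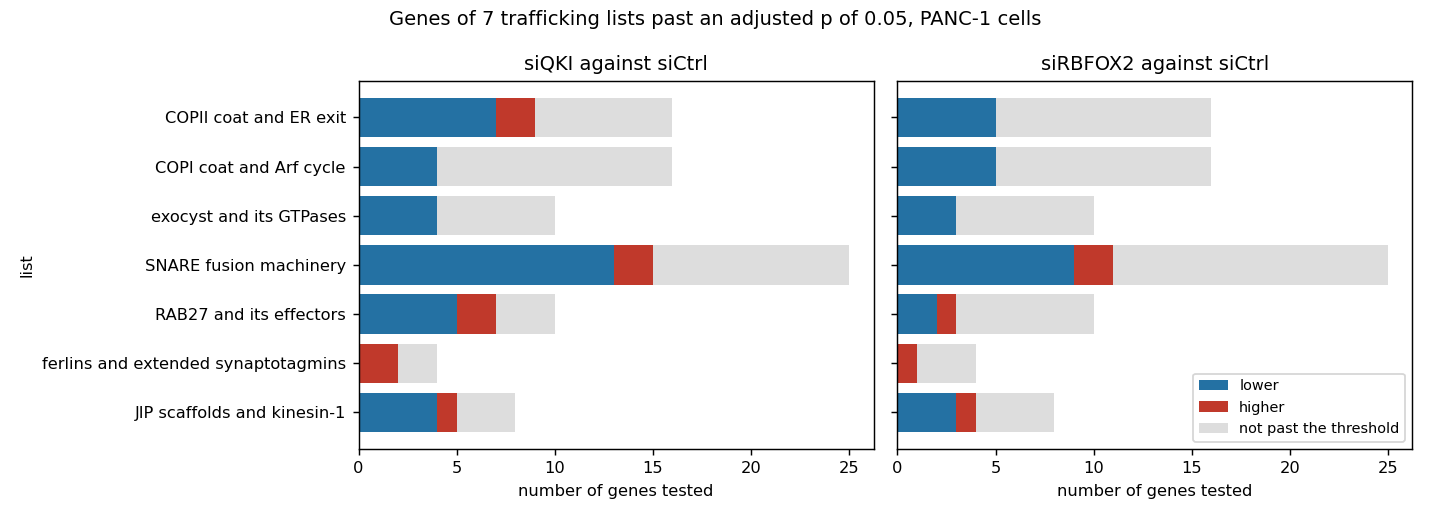
Number of genes tested (x axis) in each of 7 trafficking lists (y axis) that were lower (blue), higher (red) or not past an adjusted p of 0.05 (grey) after QKI (left) and RBFOX2 knockdown (right) in PANC-1 cells. In the SNARE list 13 of 25 genes fell after QKI and 9 after RBFOX2 knockdown, and none of the 16 COPI genes passed as higher on this scaling.

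Between the lines 34 of 90 listed genes differed by at least 2-fold, 19 higher and 15 lower in HPAF-II, against 52.4% of all genes compared. The split moved with the scaling, to 14 higher and 15 lower after upper-quartile rescaling and to 12 higher and 18 lower for the deposited values. Of RAB27 and its effectors 7 of 10 were at least 2-fold higher in HPAF-II, against 6706 of all 24673 genes compared. Their median log2 ratio was 2.91, against 0.08 over all genes. EXPH5 was at 1.64 ± 0.229 rescaled counts in PANC-1 and 49.6 ± 13.3 in HPAF-II cells (SD, n = 3), SYTL4 at 0.0521 ± 0.0461 and 5.34 ± 0.631, and RAB27B at 5.82 and 51.9, while MYRIP was lower in HPAF-II (log2 ratio -2.17, and -3.85 without HPAF-II replicate 2). With a pseudocount of 1 the log2 ratio of SYTL4 was 2.59 instead of 6.43, that of EXPH5 4.26 instead of 4.91 and that of MYRIP -0.42. SYTL2 itself had a log2 ratio of -1.91.

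In the COPII list 4 of 16 genes were at least 2-fold higher in HPAF-II and none lower, against 6706 higher and 6217 lower of all 24673 genes. MIA2 (19.8 against 82.4 rescaled counts) and SEC24B (29.3 against 64.0) led. SEC31B and SEC16B were just past 2-fold (log2 ratios 1.01 and 1.03), and 18.4% and 59.8% of their exon bases overlap other genes. SEC24B was at 0.85 for the deposited values, short of 2-fold. PREB and SAR1B were lower, at log2 ratios of -0.83 and -0.13. ARF4 and ARF5 were lower in HPAF-II, at log2 ratios of -1.70 and -1.17 (26.3% of ARF5 exon bases overlap other genes), and the coat subunits COPB2 and COPA were higher at 0.62 and 0.51. EXOC3 and RALB were higher (1.04 and 1.03), and RHOQ and EXOC2 lower (-1.60 and -1.15). Of the SNARE list, STX17 and VAMP5 were higher (1.51 and 1.45) and STX8 and VAMP7 lower (-1.30 and -1.18).

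DYSF (dysferlin, the ferlin of muscle membrane repair) stood at 2.72 ± 0.454 rescaled counts in PANC-1 and 0.0550 ± 0.0604 in HPAF-II cells, and OTOF at 0.821 ± 0.279 and 0.00969 ± 0.0168, both near 0 in HPAF-II, whereas ESYT3 was higher there (log2 ratio 0.83). The scaffolds MAPK8IP2 (14.6 ± 0.132 against 0.0582 ± 0.0513 rescaled counts) and MAPK8IP1 (2.71 ± 0.0811 against 0.587 ± 0.0790) were lower in HPAF-II, and KIF5B and ARF6 higher (log2 ratios 0.54 and 0.36).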

How the data were processed

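PolyA RNA of 12 libraries was sequenced by the authors in paired-end format. Per the labels, STAR 2.7.5a, SAMtools, Picard, FastQC and DESeq2 were used with hg38, and genes are those of FAST DB. The study's software list names featureCounts without saying for which data, and the use of strand and read pairs is not given in the sources used here. For the deposited values (a signal), the authors scaled gene counts with DESeq2, separately for 9 PANC-1 and 3 HPAF-II libraries. Spacing of the values gave scaling factors of 0.877 to 1.15 and 0.810 to 1.09. Low values (up to 30 spacings) fell on multiples of 3 in 82.1% to 84.8% of cases, so the spacing is not 1 fragment, depth in fragments is unknown and no count test was run. Precision comes from the replicates.

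For PANC-1 contrasts, limma 3.58.1 (R 4.3.3, mean-variance trend, 9 libraries fitted together) was run on log2(normalized count + 1), for 22544 genes with a mean of at least 10, with Benjamini-Hochberg adjustment over them and a threshold of 0.05. SE is the standard error of the log2 fold change. All 10 members passed the filter. This fold change understates the change of genes with low values. In simulated data of 22003 genes for siQKI against siCtrl, 70 of 75 genes with a mean of at least 50 and a log2 change of 2 were recovered, and 47 of 81 with a log2 change of 0.5. Only 100 genes were changed at each size there, whereas 33.0% of genes passed in the data. These shares therefore do not measure the sensitivity of the fit to the data. Lines were compared by values rescaled to 1000000 per library, with a pseudocount of 0.01, for 24673 genes with a mean of at least 10 in either line. Exons came from GENCODE 29 and were found through the study's primers, siRNAs and exon positions. Python 3.11.15, pandas 2.3.3, numpy 2.4.6 and matplotlib 3.10.9 were used.

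The members and the 7 lists were chosen with earlier results of these data known. Beside the members, the text names from each list up to 2 genes per direction with the largest change past the threshold (mean of at least 50) for each knockdown, and up to 2 with the largest ratio between lines whose libraries do not overlap. Paralogs of members are named as well. The alternatives were pseudocounts of 0.1 and 10 (1 between lines), no filter or a mean of at least 50, upper-quartile rescaling, no rescaling between lines, a replicate block, no trend, a fit of only the groups compared, and each library left out.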

Additional observations from a re-analysis of the deposited data

How the results depend on the processing

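Of the members' log2 fold changes under 17 alternatives each, 159 of 170 for siQKI, 155 of 170 for siRBFOX2 and 157 of 170 for siQKI against siRBFOX2 kept their direction and their side of the threshold. Those that turned were EXOC1 after RBFOX2 knockdown, from 0.01 to values between -0.034 (without siRBFOX2 replicate 1) and 0.032 (without siRBFOX2 replicate 3), and MYOF after RBFOX2 knockdown, from 0.01 to values between -0.0092 (without siCtrl replicate 1) and 0.032 (without siCtrl replicate 3), none of them past the threshold. Without a mean-variance trend, 3 members instead of 5 and 15 listed genes instead of 29 passed for siQKI against siRBFOX2, and the cause was not tested. With a pseudocount of 1 rescaled count between the lines, 5425 of all genes instead of 12923 were at least 2-fold apart, since a pseudocount of this size is above the level of many genes. Leaving out 1 library at a time, 6 to 8 members passed for siQKI, 5 to 6 for siRBFOX2 and 4 to 5 for siQKI against siRBFOX2, and 3 to 4 were at least 2-fold apart between the lines. Upper-quartile rescaling raised the median log2 fold change of all genes after QKI knockdown from 0.03 to 0.09 and turned the split of all calls from 3362 higher and 4070 lower to 4225 higher and 3057 lower. It also gave 5 members lower for siQKI, 1 member higher and 5 lower for siRBFOX2, and 14 listed genes higher and 17 lower instead of 10 and 19 for siQKI against siRBFOX2. The deposited values without rescaling moved the log2 ratios of the members between the lines down by about the difference of the tables' totals, to 1.31 for ARFGAP2, -0.27 for EXOC7 and -1.23 for SPAG9. The replicate numbers did not pair the libraries, since same-numbered libraries deviated together with r between -0.03 and 0.02. The replicate block gave 7, 5 and 4 members past the threshold against 7, 6 and 5, with the calls of SYTL2 for siRBFOX2 and MYOF for siQKI against siRBFOX2 lost. Depth in fragments is unknown, so low values carry no counting interval.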
